A study of Mus musculus with 12 samples.

Results

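The genes described here are Saa3 and 8 other genes for acute-phase and neutrophil granule proteins: Hp, Lcn2, Slpi, S100a8, S100a9, Ltf, Camp and Ngp. They were taken by gene symbol from a table of 23420 gene rows, and they were chosen as a set from measured values of the comparison between treated tibia and untreated femur in these samples. For that reason their tibia-over-femur values, and the test calls given for them below, are a description only. All 9 passed the filter on low counts, which kept 11806 genes. The libraries are bulk RNA-seq of macrophages sorted from bone marrow nucleated cells of C57BL/6 mice (kept on a C57BL/6J background). The tibias were treated with mesenchymal stromal cells (MSCs), fibroblast-like cells that support blood formation, and femurs from the same mice served as untreated bones. Each of 2 mice, numbered 7 and 19, gave 3 libraries from its treated tibia, whose cells the labels call MSC-educated macrophages, and 3 from its untreated femur. The series title names leukemia bone marrow, but whether both bones carried leukemia, the animals' age, the MSC dose and the time of sorting are not stated in the labels. Treatment always went with the tibia and its absence with the femur, so effects of treatment and of bone cannot be told apart.

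Acute-phase proteins are plasma and tissue proteins whose production rises in inflammation, largely under interleukin-6, interleukin-1 and the transcription factors STAT3, NF-kB and C/EBP. Saa3 encodes the serum amyloid A protein that mice make outside the liver, in macrophages among other cells. Developing neutrophils fill their granules in order: primary (azurophil) granule proteins at the promyelocyte stage, secondary (specific) granule proteins such as lactoferrin (Ltf), the cathelicidin CRAMP (Camp), neutrophil granule protein (Ngp) and lipocalin 2 (Lcn2) at the myelocyte and metamyelocyte stages, and tertiary (gelatinase) granule proteins later. S100a8 and S100a9 form calprotectin, an abundant cytosolic zinc- and calcium-binding protein of neutrophils and monocytes.

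Saa3 lies on the minus strand at chr7:46711998-46715700 (GRCm38, the assembly that mm10 names, GENCODE gene limits), and the others lie on 4 more chromosomes. S100a8 (chr3:90668978-90670035) and S100a9 (chr3:90692632-90695721) are close to each other on chromosome 3. Camp (chr9:109847379-109849617), Ngp (chr9:110419747-110423012) and Ltf (chr9:111019271-111042767) are all on chromosome 9. Lcn2 (chr2:32384633-32388252) and Slpi (chr2:164354070-164389095) are on chromosome 2, and Hp (chr8:109575128-109579172) is on chromosome 8. RefSeq promoter windows were matched for 8 of the 9 genes, Hp being the one without an entry. The 3 promoters below are printed as examples: that of Saa3, the gene with the large difference between the bones, and those of Ngp and Ltf, secondary granule genes that differed between the animals. Each is the 120 bases of GRCm38 next to the GENCODE start, 5′ to 3′ on the gene's strand. That start lies upstream of the RefSeq start of the matched promoter window by 24 bases for Saa3, 61 for Ngp and 21 for Ltf. The RefSeq gene limits of Saa3 reach chr7:46719615, further upstream than both of its starts used here. Capitals mark the letters TTNNGNAA on either strand, a loose form of the site that C/EBP factors bind.
Saa3 (chr7:46715701-46715820, minus strand): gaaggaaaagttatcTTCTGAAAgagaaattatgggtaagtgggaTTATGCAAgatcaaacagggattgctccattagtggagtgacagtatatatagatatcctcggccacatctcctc
Ngp (chr9:110419627-110419746, plus strand): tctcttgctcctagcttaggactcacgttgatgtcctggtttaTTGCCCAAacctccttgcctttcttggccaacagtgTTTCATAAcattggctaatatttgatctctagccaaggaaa
Ltf (chr9:111019151-111019270, plus strand): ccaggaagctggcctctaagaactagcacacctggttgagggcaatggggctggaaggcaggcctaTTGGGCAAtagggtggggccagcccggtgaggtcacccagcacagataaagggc

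Over the whole 250 bases upstream of the RefSeq start, 7 of the 8 windows held TTNNGNAA, all but that of Camp, against 36.8% of 32851 RefSeq promoter windows of the same length. Saa3 had 4 matches, the nearest 99 bases before the RefSeq start. The STAT-like letters TTCNNNGAA were in none of the 8 windows (7.02% of all windows), nor was the NF-kB consensus on either strand (3.90%). TATAAA between 40 and 16 bases before the start, read on the gene's strand, was found for S100a8 alone, against 1.99% of all windows. These matches are descriptions of letters and do not show that a factor binds.

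Total counts ran from 9773455 to 14869150 per library, and levels are given as CPM, which relate a gene's counts to the scaled library size. Macrophage and monocyte markers were detected throughout, with Lyz2 (lysozyme M) and Ccr2 (a monocyte chemokine receptor) the most abundant. Transcripts of the granule genes were also plentiful: the 9 genes took 1.76 to 1.93% of the counts of each mouse 7 femur library and 1.86 to 1.98% in its tibia. In mouse 19 the shares were 2.58 to 2.96% in femur and 2.92 to 3.15% in tibia. Fewer cells of a type and less RNA per cell cannot be told apart in bulk libraries. Per kilobase of exon, femur levels ran in the order S100a9 (11527 CPM per kb), S100a8 (6356), Ngp (4338), Camp (1408), Ltf (790), Hp (789), Lcn2 (718), Slpi (91.5) and Saa3 (4.13). The length used was the union of all annotated exons of a gene, for instance 2606 bases for Saa3 and 2623 for Lcn2. Such a union can be longer than a single transcript and then lowers the value, so the order depends on that length. On this scale Ltf lay above Lcn2 in each of the 6 femur libraries, while the place of Hp differed between the animals. Hp was above both in mouse 7 femur (mean 780 CPM per kb against 617 for Ltf and 593 for Lcn2). It was below both in mouse 19 femur (797 against 963 and 844).

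Saa3 was the low-abundance gene of the set and the one with a large difference between the bones. In mouse 7 it was at 13.8, 11.2 and 13.5 CPM in the 3 femur libraries and at 41.7, 42.3 and 41.6 CPM in the 3 tibia libraries. In mouse 19 it was at 7.92, 9.97 and 8.26 CPM in femur and at 70.5, 73.6 and 69.0 CPM in tibia. All tibia libraries lay above all femur libraries, and the 4 groups of mouse and bone did not overlap one another. The ratio of means was 3.27 in mouse 7 and 8.15 in mouse 19, and over both mice the fitted log2 fold change was 2.33 ± 0.15 (SE, 12 libraries), rank 10 of 11806 genes. Per kilobase of the exon union, Saa3 in tibia (21.7 CPM per kb) was still below the femur level of the other 8 genes.

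**Figure D1:**
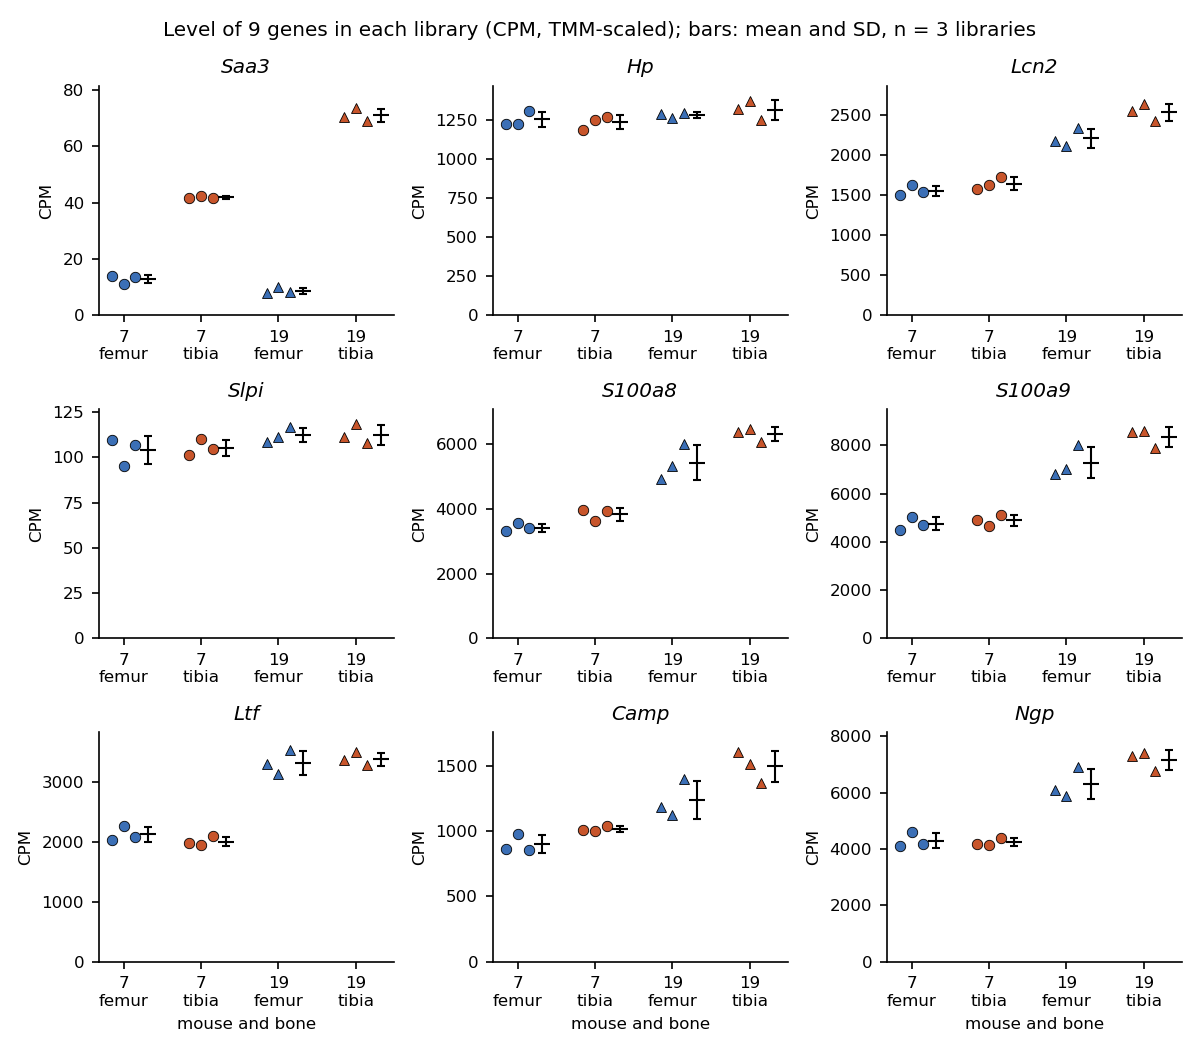
CPM of each gene by mouse and bone, 1 panel per gene with its own linear axis from 0; points are libraries (blue femur, orange tibia, circles mouse 7, triangles mouse 19) and the black marks are mean and SD of 3 libraries. Saa3 separates by bone, the S100 genes, Ltf, Camp, Ngp and Lcn2 separate by mouse, and Hp and Slpi are nearly level.

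The size of the Saa3 difference was not the same in the 2 animals. The log2 fold change was 1.71 ± 0.09 (SE) within mouse 7 and 3.02 ± 0.09 within mouse 19, a difference of 1.31 ± 0.13 (adjusted p = 1.5e-07, edgeR quasi-likelihood interaction test with Benjamini-Hochberg adjustment, 12 libraries). In untreated femur Saa3 was lower in mouse 19 than in mouse 7 (log2 -0.55 ± 0.11, adjusted p = 4.1e-04 by the same edgeR model), and in tibia its level in mouse 19 was 1.70 times that in mouse 7. Of the 11806 genes tested, 2.89% had a larger tibia-over-femur change in mouse 19 and 1.85% a smaller one. Among the 9 genes, Saa3 alone was in the first class. The second held none by edgeR or by DESeq2, nor at an unadjusted p under 0.05. Both tests compare libraries of 2 animals, and the labels do not say whether the 3 libraries of a bone come from separate sorts, so p-values measure the spread between libraries. The genes were chosen from the tibia and femur values that the interaction test also uses, so its p-value is a description.

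The calprotectin genes were among the most abundant transcripts of the sort. S100a8 was at 3302, 3543 and 3389 CPM in mouse 7 femur and at 3971, 3605 and 3917 CPM in its tibia. In mouse 19 it was at 4926, 5310 and 5996 CPM in femur and at 6359, 6464 and 6062 CPM in tibia. Tibia libraries lay above all femur libraries of the same animal in both mice, by a factor of 1.12 in mouse 7 and 1.16 in mouse 19. S100a9, its partner, was at 4496, 5033 and 4718 CPM in mouse 7 femur against 4895, 4648 and 5127 CPM in tibia. In mouse 19 it was at 6821, 7011 and 8023 CPM in femur against 8563, 8590 and 7880 CPM in tibia, and in both mice the bones overlapped. The fitted log2 fold change over both mice was 0.19 ± 0.04 (SE) for S100a8 and 0.12 ± 0.04 for S100a9.

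The secondary granule genes showed small differences between bones. Camp, the cathelicidin, had 865, 977 and 854 CPM in mouse 7 femur and 1007, 1002 and 1041 CPM in tibia, with no overlap. In mouse 19 it had 1184, 1122 and 1400 CPM in femur and 1608, 1510 and 1367 CPM in tibia, where the bones overlapped. Lcn2, a siderophore-binding lipocalin that withholds iron from bacteria, was at 1499, 1628 and 1536 CPM in mouse 7 femur and at 1576, 1624 and 1732 CPM in tibia. In mouse 19, Lcn2 was at 2182, 2112 and 2347 CPM in femur and at 2552, 2638 and 2425 CPM in tibia, with no overlap there, unlike mouse 7. The fitted log2 fold change was 0.23 ± 0.05 (SE) for Camp and 0.14 ± 0.03 for Lcn2.

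Ngp, a cystatin-related protein of the specific granules, was at 4112, 4615 and 4165 CPM in mouse 7 femur and at 4193, 4132 and 4406 CPM in tibia. In mouse 19 it was at 6114, 5892 and 6908 CPM in femur and at 7309, 7407 and 6763 CPM in tibia. Ltf, the iron-binding lactoferrin, was at 2038, 2267 and 2077 CPM in mouse 7 femur and at 1976, 1952 and 2092 CPM in tibia. In mouse 19, Ltf was at 3294, 3142 and 3532 CPM in femur and at 3367, 3502 and 3285 CPM in tibia. For both genes the bones overlapped in both animals, and the fitted log2 fold change was 0.08 ± 0.04 (SE) for Ngp and -0.03 ± 0.03 for Ltf.

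Hp and Slpi were nearly level across all groups. Hp, haptoglobin, which binds free haemoglobin, was at 1225, 1226 and 1307 CPM in mouse 7 femur and at 1187, 1250 and 1269 CPM in tibia. In mouse 19 it was at 1290, 1259 and 1293 CPM in femur and at 1321, 1370 and 1249 CPM in tibia. Slpi, an inhibitor of neutrophil elastase, was at 109, 95.2 and 107 CPM in mouse 7 femur and at 101, 110 and 104 CPM in tibia, and in mouse 19 at 109, 111 and 117 CPM against 111, 118 and 108 CPM. The 95% interval of the log2 difference between bones was -0.05 to 0.07 for Hp and -0.07 to 0.09 for Slpi.

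As counts, 4 of the 9 genes were past the adjusted p threshold of 0.05 with a higher level in tibia (Saa3, Camp, S100a8 and Lcn2), where 3.51% of all tested genes were. On the lower side were none of the 9 by edgeR, by DESeq2, or at an unadjusted p under 0.05, against 3.69% of all genes. Within mouse 7 alone 2 genes were past it on the higher side (Saa3 and S100a8, background 4.37%), and within mouse 19 alone 6 were (all but Hp, Slpi and Ltf, background 2.96%). With the counts of each animal's bone added up, so that 2 animals are compared, Saa3 was the 1 gene past the threshold (background 0.407%), and Camp, S100a8 and Lcn2 were not. Since this contrast chose the genes, nothing is read from these counts. The median log2 difference of the 9 genes was 0.12, against -0.002 over all genes tested.

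**Figure D2:**
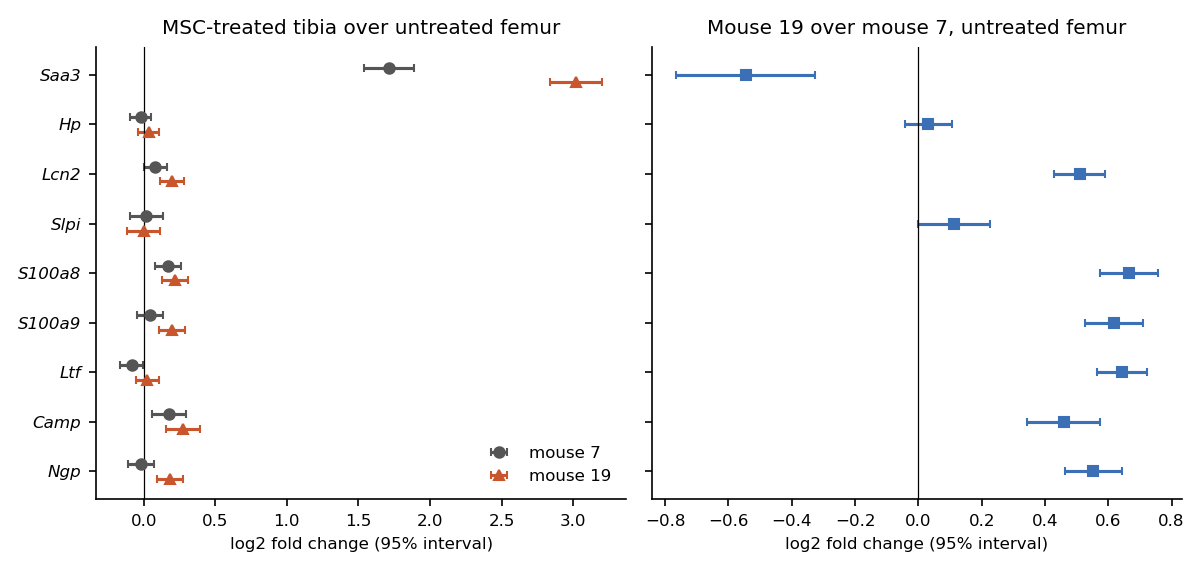
Fitted log2 fold changes with 95% intervals for the 9 genes: left, treated tibia over untreated femur within mouse 7 (grey circles) and within mouse 19 (orange triangles); right, mouse 19 over mouse 7 in untreated femur (blue squares). Saa3 stands at 1.71 and 3.02 on the left and at -0.55 on the right, while 6 granule genes stand between 0.46 and 0.67 on the right.

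The larger differences of the granule genes were between the animals. The means compared here were those of the femur libraries, while the spread was estimated from all 12 libraries, treated ones included. In femur 6 of the 9 were higher in mouse 19 by edgeR (background 14.1% of tested genes), and 1, Saa3, was lower (background 14.3%). The log2 difference was 0.67 ± 0.05 (SE, adjusted p = 2.4e-12) for S100a8, 0.64 ± 0.04 (adjusted p = 3.5e-13) for Ltf and 0.62 ± 0.05 (adjusted p = 1.5e-11) for S100a9. It was 0.55 ± 0.05 (adjusted p = 9.7e-11) for Ngp, 0.51 ± 0.04 (adjusted p = 6.2e-11) for Lcn2 and 0.46 ± 0.06 (adjusted p = 4.9e-07) for Camp. For each of these 6 genes all 3 femur libraries of mouse 19 lay above all 3 of mouse 7, and the same held in tibia. Hp (0.03 ± 0.04, adjusted p = 0.57) and Slpi (0.11 ± 0.06, adjusted p = 0.15) did not pass the test. With 1 animal on each side, this is a difference between these animals' libraries.

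The tibia-over-femur change of these 8 genes was not shown to differ between the mice. The closest was Ngp, with a difference of 0.20 ± 0.06 (SE) on the log2 scale and an adjusted p of 0.073 by edgeR. This value depended on single libraries: without femur library 3 of mouse 19 both Ngp and S100a9 joined Saa3 past the threshold, for 3 genes in all, and without tibia library 3 of mouse 19 Ngp did, for 2. For the remaining 7 genes the fitted difference lay between -0.02 and 0.15, with intervals reaching no lower than -0.18 (Slpi) and no higher than 0.28 (S100a9).

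Ratios within a library do not depend on its size and show how the granule genes moved against each other. The count ratio of Ngp to Ltf was 2.02 ± 0.02 (SD, n = 3) in mouse 7 femur and 2.11 ± 0.01 in its tibia, and 1.90 ± 0.05 in mouse 19 femur against 2.11 ± 0.06 in tibia. Camp to Ltf was 0.422 ± 0.010 against 0.507 ± 0.008 in mouse 7, and 0.371 ± 0.022 against 0.442 ± 0.032 in mouse 19. Lcn2 to Ltf was 0.731 ± 0.011 against 0.819 ± 0.019 in mouse 7, and 0.666 ± 0.005 against 0.750 ± 0.010 in mouse 19. In all 3 ratios, which share Ltf, every tibia library lay above every femur library of the same animal, in both mice. Relative to Ngp, Camp and Lcn2 the Ltf counts were thus lower in tibia. Ratios of Camp, Lcn2 and S100a8 to Ngp separated the bones fully in mouse 7 only. In mouse 19, 2 tibia libraries lay above all femur libraries for Camp to Ngp, 1 for Lcn2 to Ngp and 0 for S100a8 to Ngp. S100a9 to S100a8 was 1.39 ± 0.03 against 1.28 ± 0.04 in mouse 7 and 1.35 ± 0.03 against 1.33 ± 0.02 in mouse 19, with no tibia library above all femur libraries of its animal.

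**Figure D3:**
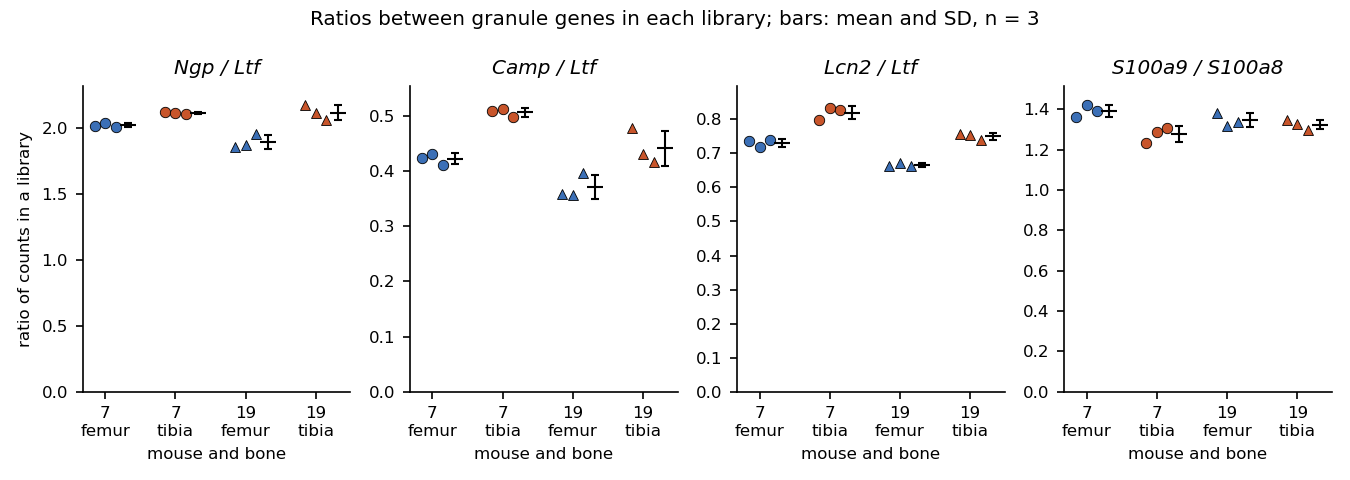
Ratio of 2 genes' counts within each library, by mouse and bone, on linear axes from 0; points are libraries, colours and shapes as in the plot of CPM, and black marks are mean and SD of 3 libraries. The ratios of Ngp, Camp and Lcn2 to Ltf are higher in tibia than in femur in both animals, for instance 0.507 against 0.422 for Camp in mouse 7.

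Other granule genes were followed through lists of primary and of secondary and tertiary granule genes. These and all other gene lists were chosen with earlier results of these data known. Of all tested genes 3.51% were higher in tibia and 3.69% lower, the background for each list's counts between bones over both mice. Of 9 tested primary granule genes, 8 were higher in tibia by edgeR and none lower (8 and none by DESeq2, 9 and none at an unadjusted p under 0.05). Ms4a3, a membrane protein of granulocyte and monocyte progenitors, rose by a log2 fold change of 0.69 ± 0.08 (SE, adjusted p = 2.3e-06 by edgeR). Cst7 (cystatin F) rose by 0.56 ± 0.10, Mpo (myeloperoxidase) by 0.53 ± 0.09 and Elane (neutrophil elastase) by 0.51 ± 0.07, all 3 past the same edgeR threshold over both mice. In 3 genes of the list the change was smaller in mouse 19 (edgeR interaction test, background 1.85%). Mpo was 0.84 ± 0.09 in mouse 7 and 0.23 ± 0.08 in mouse 19, where it did not pass (difference -0.61, adjusted p = 0.0018 by edgeR). The difference was -0.77 for Ctsg (cathepsin G) and -0.39 for Prtn3 (proteinase 3). Cst7 also did not pass within mouse 19 alone (0.37, adjusted p = 0.10 by edgeR), and its difference between the mice was not called. All 6 tibia libraries lay above the femur mean of their animal for Ms4a3, Cst7, Mpo, Elane and Prtn3, and 5 of 6 did for Ctsg. With counts added up per animal and bone, 3 of the list's genes passed on the higher side, Elane, Prtn3 and Ms4a3. The list's median was 0.48, against -0.002 over all genes.

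Of 14 tested other secondary and tertiary granule genes, none was higher in tibia and 6 were lower by edgeR (none and 6 by DESeq2, 1 and 7 at an unadjusted p under 0.05). The edgeR backgrounds were 3.51% and 3.69% of tested genes. Mmp9, the gelatinase of tertiary granules, fell by 0.36 on the log2 scale (SE 0.04). Ceacam10 fell by 0.35 (SE 0.10), Olfm4, a protein of a subset of specific granules, by 0.31 (SE 0.07), and Chi3l3, a chitinase-like lectin of neutrophils and macrophages, by 0.20 (SE 0.02). Every tibia library lay below the femur mean of its animal for these 4. Within mouse 7 alone none of the list was higher in tibia (background 4.37%) and 7 were lower. Within mouse 19, 1 was higher (background 2.96%) and 3 lower. For lower calls within a single mouse the share over all genes was not computed, so nothing is read from those counts. In 6 genes the tibia-over-femur log2 change was higher in mouse 19 (edgeR interaction test, background 2.89%). In none was it lower by edgeR or DESeq2 (background 1.85%, 1 gene at an unadjusted p under 0.05). With counts added up per animal and bone, 1 gene of this list passed, Mmp9. The list's median was -0.10, and the median of the 8 genes without Saa3 was 0.10, between the 2 lists. Between the femurs, 8 of 9 primary granule genes were higher in mouse 19 and 1, Ctsc, was lower, with a median of 0.74. Of the 14 other secondary and tertiary granule genes 8 were higher and 3 lower (Tcn2, Itgam and Fpr1), with a median of 0.19. The background was 14.1% of tested genes higher and 14.3% lower, and the median of the 8 genes was 0.53.

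**Figure D4:**
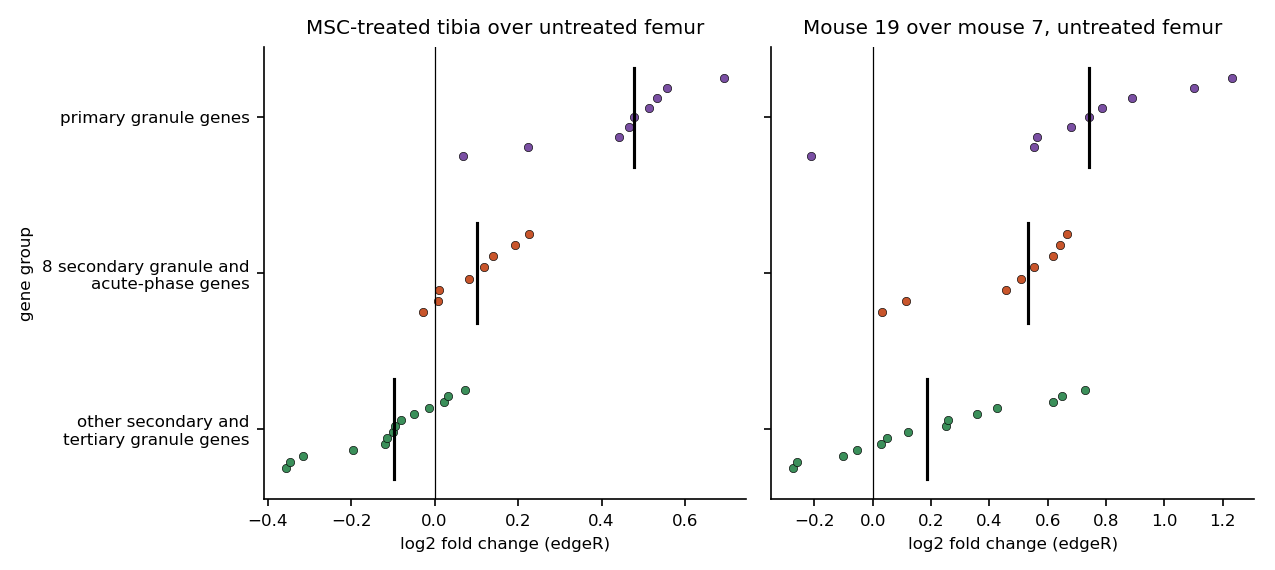
Fitted log2 fold changes of single genes (points) and their median (black bar) for 9 primary granule genes, the 8 secondary granule and acute-phase genes without Saa3, and 14 other secondary and tertiary granule genes; left, tibia over femur with the mouse as a term, right, mouse 19 over mouse 7 in femur. The medians on the left are 0.48, 0.10 and -0.10.

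Markers of neutrophils were measured beside these genes. The 19 neutrophil markers in the table that are none of the 9 genes, including Mmp8, Mmp9, Cd177, Pglyrp1 and Chi3l3 of the granule list, summed to 8839 to 9183 CPM in mouse 7 femur and 7771 to 8119 CPM in its tibia. In mouse 19 they summed to 10759 to 11013 CPM in femur and 9647 to 9943 CPM in tibia, so the sum was lower in tibia and higher in mouse 19, with Chi3l3 and Cd177 the most abundant. Chi3l3 alone, which macrophages also express, made up 60.5 to 66.1% of the sum. Without it the other 18 markers summed to 3123 to 3184 CPM in femur and 2672 to 2893 CPM in tibia of mouse 7, and to 3837 to 4056 and 3807 to 3882 CPM in mouse 19, where the bones overlapped. By edgeR 4 of the 19 were higher in tibia and 7 lower (backgrounds 3.51% and 3.69% of tested genes). The calls were 2 higher and 7 lower within mouse 7, and 2 higher and 2 lower within mouse 19. Backgrounds for higher calls were 4.37% within mouse 7 and 2.96% within mouse 19, and none was computed for lower calls within a mouse. In femur 14 were higher in mouse 19 and 1 lower (backgrounds 14.1% and 14.3%). Relative to the summed neutrophil markers of the same library, a scale added after the data were seen, the Saa3 log2 difference was 1.89 in mouse 7 and 3.18 in mouse 19. On that scale the other 8 genes stood between 0.09 and 0.43 higher in tibia. With Chi3l3 left out of the sum, a further scale added after the data were seen, Saa3 stood at 1.90 and 3.07 and the other 8 genes between 0.03 and 0.37. Eosinophil markers also followed the mouse, at 168 to 224 CPM in mouse 7 and 326 to 509 CPM in mouse 19. Macrophage and monocyte markers summed to 21071 to 21588 CPM in mouse 7 femur and to 17757 to 19708 CPM in the other 3 groups. Lyz2 made up most of each sum. Its means were 15468 and 13782 CPM in femur and tibia of mouse 7 and 13533 and 12978 CPM in mouse 19. By edgeR 3 of the 18 markers were higher in tibia and 1 lower (backgrounds 3.51% and 3.69%). The calls were 2 higher and 4 lower within mouse 7, and 9 higher and 1 lower within mouse 19, with the same within-mouse backgrounds for higher calls and none for lower ones. In femur 5 were higher in mouse 19 and 8 lower (backgrounds 14.1% and 14.3%). The part of these cells in the granule gene differences was not tested.

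Stromal cell and osteoblast markers, which carried-over MSCs would bring, were low: they summed to 57.1 to 73.6 CPM over all libraries, led by Runx2 and Acta2. Col1a1 (collagen I), a defining gene of these cells, had 82 counts over all 12 libraries. Over both mice none of the 8 tested stromal markers passed the edgeR test between bones in either direction (none higher and 1 lower by DESeq2, and the same at an unadjusted p under 0.05). Within mouse 7 alone 2 were lower in tibia by edgeR and none higher, and within mouse 19 none passed.

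Among other acute-phase genes, Saa3 was the serum amyloid A gene with signal. Saa1 had 2 counts and Saa2 1 count over all 12 libraries, and Saa4 had 0, as had the liver-made Crp, Apcs, Fga, Fgb, Fgg and Itih3. A count of 0 in a library allows up to 3 fragments, or 0.404 to 0.617 CPM, for counting error only. Of 29 listed genes 13 were tested, 2 of them higher in tibia and 3 lower by edgeR (backgrounds 3.51% and 3.69%). Mt1, a metallothionein, rose by 0.55 ± 0.09 (log2, SE) and Lrg1, a glycoprotein also stored in neutrophil granules, rose by 0.25 ± 0.04. Serpina3g, a serine protease inhibitor, fell by 0.55 (SE 0.11), Cp (ceruloplasmin) by 0.51 (SE 0.13) and C3, the central complement component, by 0.19 (SE 0.03). Orm1 (orosomucoid) did not pass, at 0.03. Of the 5 called genes, Mt1 also passed on counts added up per animal and bone. Cd14 passed there too, on the higher side (adjusted p = 0.038 by edgeR), but not over the 12 libraries (adjusted p = 0.081 by edgeR).

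Of 25 tested genes of interleukin-6, interleukin-1, TNF and NF-kB signalling, 2 were higher in tibia and 2 lower by edgeR, against 1 higher and 4 lower by DESeq2, which did not call Il1b. Socs3, the feedback inhibitor that STAT3 induces, had means of 81.5 CPM in femur and 90.6 CPM in tibia of mouse 7, and 53.3 and 96.9 CPM in mouse 19. Its log2 change was 0.50 ± 0.11 (SE, adjusted p = 0.0047 by edgeR) and, like that of Saa3, was larger in mouse 19, by 0.71 (adjusted p = 0.0019 by edgeR). Il1b, the gene of interleukin-1 beta, had 36.8 and 35.8 CPM in mouse 7 and 22.9 and 39.1 CPM in mouse 19, with 4 of 6 tibia libraries above the femur mean of their animal. Its log2 change was 0.34 ± 0.10 (SE, adjusted p = 0.046 by edgeR), larger in mouse 19 by 0.81 (adjusted p = 8.7e-05 by edgeR). Rel fell by 0.26 and Il6st, the shared signalling receptor gp130, by 0.23 on the log2 scale. Stat3 itself did not pass (0.01), and none of the 4 called genes passed on counts added up per animal and bone. In femur, 16 of the 25 were lower in mouse 19 and 1, Tnf, was higher (backgrounds 14.3% and 14.1% of tested genes).

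Among 11 tested granulocyte transcription factors, Cebpa, which starts granulocyte commitment, fell by 0.13 on the log2 scale in tibia (SE 0.03), and none rose by edgeR or DESeq2 (2 at an unadjusted p under 0.05). Cebpe, the factor that switches on secondary granule genes, was at 65.8 and 67.9 CPM in femur and tibia of mouse 7 and at 95.6 and 107 CPM in mouse 19. Its difference between bones did not pass (0.10 ± 0.05, SE), and in femur it was higher in mouse 19 by 0.54 (adjusted p = 3.2e-07 by edgeR). Of 17 tested receptors and carriers of the 9 genes' proteins, Hmox1 (haem oxygenase 1, downstream of haptoglobin-haemoglobin uptake) was the 1 higher in tibia by edgeR, by 0.32 ± 0.06 (SE), where DESeq2 called 2 higher. None was lower by edgeR or DESeq2 (1 at an unadjusted p under 0.05). Cd163, the haptoglobin-haemoglobin receptor (0.34 ± 0.22, SE), and Tlr4, a receptor for S100a8 with S100a9 (0.01 ± 0.06), did not pass, and Lrp2 and Itln1 had 0 counts in all libraries.

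Other S100 genes and protease inhibitors were followed in the same way. Of 7 tested other S100 genes, S100a11 was higher in tibia (0.18 ± 0.04, log2, SE) and none was lower by edgeR, by DESeq2 or at an unadjusted p under 0.05. Slpi is a WAP-domain serine protease inhibitor. Of 15 tested protease inhibitors, a list that mixes WAP-domain proteins with serpins, Kunitz-type inhibitors and cysteine protease inhibitors, 5 were higher and 2 lower by edgeR (6 and 2 by DESeq2). Spint1, a Kunitz-type inhibitor of membrane serine proteases, went from 2.28 to 16.8 CPM in mouse 7 and from 4.17 to 35.0 CPM in mouse 19, a log2 change of 2.98 ± 0.12. Stfa3 (1.32 ± 0.32) and Stfa1 (0.80 ± 0.23), cysteine protease inhibitors of the stefin A cluster, also rose but lay below 4 CPM in every group, and near-identical copies make their counts uncertain. Serpinb2 fell by 0.53 (SE 0.12). On counts added up per animal and bone, Spint1 passed, and the other called genes of these 2 lists did not, nor did Cebpa and Hmox1. Cd14, which is also on the list of receptors and carriers, passed on these sums only.

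The genes whose pattern was most like that of Saa3 were sought over the 12 libraries, on log2 CPM with each mouse's mean taken out. They were Cd38 (Pearson r = 0.993), Dab2 (0.992), Ifitm1 (0.992), Stab1 (0.987) and Tgfbi (0.983), and they share with Saa3 the bone, the libraries and the depth. Dab2, an endocytic adaptor, had means of 3.48 and 19.9 CPM in femur and tibia of mouse 7 and 2.14 and 27.5 CPM in mouse 19. Ifitm1, an interferon-induced membrane protein, had 23.6 and 47.9 CPM in mouse 7 and 24.5 and 81.8 CPM in mouse 19. Stab1, a scavenger receptor, had 28.2 and 53.2 CPM in mouse 7 and 9.98 and 38.1 CPM in mouse 19. By rank correlation the nearest 5 were tied at 0.965, so their order carries no meaning, and 1 of the genes above, Ifitm1, was among them. With the mouse means kept, 2 of the genes above were among the nearest 5, Dab2 and Tgfbi.

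The genes most like Ngp on the same measure were Sh2d1b1 (Pearson r = 0.936), Trp53inp2 (0.884), Gys1 (0.882), Zfp958 (0.865) and Synj2 (0.864). With the mouse means kept, so that the difference between the animals counts, the nearest were Trp53inp2 (0.991), Gys1 (0.990), Anxa1 (0.981), Cebpe (0.981) and 1100001G20Rik (0.979). These correlations are descriptions over 12 libraries of 2 animals, among 11806 genes searched.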

How the data were processed

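Per the labels, 12 bulk RNA-seq libraries hold marrow macrophages of 2 mice, from the tibia given MSCs and the untreated femur. Column-purified, DNase-treated RNA went into mRNA libraries, per the labels' protocols. The deposited values are raw counts per gene. The submitters' processing notes name mm10, bcl2fastq, HISAT2, featureCounts, Subread and DESeq2, with no settings or strand handling. All sample columns were matched by title. Of counts from 1 to 10, 69.8% were even, so most fragments appear as 2 counts, and the limit for a count of 0 was set at 3 fragments (6 counts). Such limits cover counting error only.

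The genes and the gene lists were chosen with earlier results of these data known. Genes were tested in R 4.3.3 with edgeR 4.0.16 (TMM, filterByExpr on 4 groups with a minimum count of 10, quasi-likelihood, two-sided, Benjamini-Hochberg adjustment over 11806 genes, threshold 0.05). Tibia was compared with femur with the mouse as a term. Contrasts within a mouse, between the mice and in femur used 1 mean per mouse and bone. The biological coefficient of variation was 6.26% and 5.51% in the 2 models. Standard errors are the change over the square root of the F value. The script was tested on simulated data. Alternatives included DESeq2 1.42.0, other scaling and filters, sums per animal and leaving out each library. All 9 genes are named. Of each list, up to 4 genes past the threshold by size are named, with a few defining genes. The 5 genes most like Saa3 and Ngp are named by Pearson correlation of log2 CPM (prior count 2). Promoter sequences are from RefSeq (GRCm38), and exon lengths are the union of all GENCODE exons of a gene.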

Additional observations from a re-analysis of the deposited data

Results flagged for a closer look

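The tibia-over-femur change of Saa3 differed between the animals: it was larger in mouse 19 than in mouse 7 by 1.31 on the log2 scale (adjusted p = 1.5e-07, edgeR interaction test), with 3 of 3 tibia libraries above all femur libraries in each animal. The difference kept its direction and stayed past the threshold in all 17 alternatives run for it, with log2 values of 1.24 to 1.42. These fits reuse the values by which the genes were chosen, so they are a description.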

How the results depend on the processing

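The count of genes higher in tibia (4) fell to 1, Saa3, on counts summed per mouse and bone and to 1 with no replicate block (the mouse term left out), and was 2 within mouse 7. It was 6 with no filter on low counts, where S100a9 and Ngp joined, and 4 with a replicate block of mouse and library number, which the labels do not say pairs samples. This contrast chose the genes, so these counts are a description. The count of other pathway and family genes higher in tibia (18) was 6 on sums and 2 with no replicate block, and that of lower ones (14) was 1 and 1. The count of genes with a larger change in mouse 19 (1) was 3 with no filter on low counts, and leaving out 1 library gave 1 to 3. The cause was not tested. S100a9 passed the threshold between bones when library 3 of either bone of mouse 19, or library 2 of either bone of mouse 7, was left out. The interaction could not be tested on sums, which leave no residual degrees of freedom. The comparisons rest on 2 animals.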
